A study of Mus musculus with 24 samples.

Results

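The 40 genes described here are cell cycle genes chosen by symbol for their known roles in DNA replication and in mitosis. All 40 were listed among the 13534 genes of the whole-cell count table and among the 11568 genes of the table for nuclear and cytoplasmic fractions. The S phase group has 15 genes: the MCM helicase subunits Mcm2, Mcm3, Mcm4, Mcm5, Mcm6 and Mcm7, the loading factors Cdc6 and Cdt1, the helicase partners Cdc45 and Gins2, the sliding clamp Pcna, and the nucleotide enzymes Rrm1, Rrm2, Tyms and Tk1. The mitosis group has 25 genes. They are the kinase Cdk1 with its cyclins Ccna2, Ccnb1 and Ccnb2 and its partner Cks2, the kinases Aurka, Aurkb, Plk1, Bub1 and Bub1b, the checkpoint protein Mad2l1, the ubiquitin pathway genes Cdc20 and Ube2c, and the Aurkb partner Birc5. The remaining members are the centromere and kinetochore genes Cenpa, Cenpe and Cenpf, the motors Kif11, Kif20a and Kif23, the spindle proteins Tpx2, Prc1 and Nusap1, and the chromosome proteins Top2a and Mki67.

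In dividing cells these genes are switched on in waves. E2F factors drive the S phase genes late in G1, and the MuvB complex with B-Myb and FoxM1 drives the mitosis genes in G2, through promoter elements called CHR and the CCAAT box. Some of the proteins are later removed by ubiquitin-dependent degradation. Since the genes are switched on in dividing cells, their summed mRNA level is often used as a measure of how much a culture is dividing.

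RNA was sequenced from NIH3T3 cells, an immortalised line of mouse embryonic fibroblasts, transfected with a mimic of the microRNA miR-29b or with a scrambled mimic. Both oligonucleotides carried CNVK, a nucleoside that crosslinks to an opposed pyrimidine under light, at 10 nM. Fresh medium followed at 24 h, and the harvest came 8 h after that. Each mimic had 4 whole-cell input libraries and 4 libraries of RNA recovered in a pulldown, and 1 library each of nuclear and cytoplasmic input and pulldown. The table's headers call replicates 1 to 3 lysed and replicate 4 intact, and the design text names 3 replicates, so replicates 1 to 3 form the groups compared and replicate 4 is described apart. No group lacked a transfected mimic, and no label ties the libraries of a group to separate cultures. The p-values therefore reflect spread among libraries that may be only technical.

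The listed counts ranged from 7409157 in scrambled pulldown replicate 1 to 55153996 in miR-29b input replicate 4. Fibroblast markers fitted the label, with 10 of 11 listed in the table. They summed to 4484 to 4666 CPM in the 6 inputs numbered 1 to 3. CPM are counts scaled to a common library total, on library sizes scaled by TMM factors. Vim was the highest of these markers, 1 of those listed lay under 1 CPM, and Lum was not listed. None of 4 endothelial markers was listed, and the 2 listed of 6 epithelial markers summed to 1.00 to 1.67 CPM. Of 5 leukocyte, 5 muscle and 5 neural markers 2 each were listed, at 2.37 to 4.15, 1.69 to 2.84 and 17.1 to 19.2 CPM. Adipocyte markers were higher, with 4 of 5 listed at a summed 231 to 261 CPM, Fabp4 being the highest. Some libraries stood apart before any comparison. Scrambled pulldown replicate 1 differed from replicates 2 and 3 by a chi-square of 185 and 129 per degree of freedom over genes, against 15.1 between those. Scrambled pulldown replicate 4 differed from replicate 3 by 7.43, while replicate 4 of the other groups differed from its fellows by 219.9 to 404.9. Replicate 3 of the miR-29b pulldown lay between replicates 1 and 2 in 3470 of 3873 genes whose replicates 1 and 2 differed by at least 1.5-fold, and in 11 of 11 such members. In the scrambled pulldown it did so in 4331 of 5561 such genes and 29 of 33 such members. In the inputs this held for 948 of 1357 genes with miR-29b and 1144 of 1672 with the scrambled mimic. Whether replicate 3 is independent of replicates 1 and 2 was not tested. The 3 libraries per group may therefore overstate the replication, most of all in comparisons with pulldowns.

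The promoters are shown first, since the members were grouped by phase and their known regulators read these letters. Of the 40 members, 34 were matched in a RefSeq promoter table of GRCm38.p6 with 250 bases before and 50 bases after each start, giving 22 promoters of 21 mitosis genes and 14 promoters of 13 S phase genes. Both strands were searched for CHR letters (TTTGAA or TTTAAA, the latter its own reverse complement), for CCAAT, and for E2F letters (TTTCGCGC, TTTGGCGC, TTTCCCGC or TTTGCCGC, which can overlap each other). CHR letters stood in 18 of 22 mitosis promoters (81.8%), in 5 of 14 S phase promoters (35.7%) and in 27.6% of all 32851 promoters of that length. CCAAT stood in 19 of 22, in 10 of 14 and in 37.4% of all. E2F letters stood in 6 of 14 S phase promoters (42.9%), in 1 of 22 mitosis promoters, that of Cdk1, and in 2.26% of all. CHR and CCAAT letters occurred together in 17 of 22 mitosis promoters, 4 of 14 S phase promoters and 10.7% of all. Such matches are letters in a window and not shown binding sites. The 4 promoters below, 5′ to 3′ on the gene's strand with matches on either strand in capitals, give an E2-conjugating enzyme and a centromeric histone of the mitosis group and a helicase subunit and its loader of the S phase group. They lie in GRCm38 at chr2:164769679-164769978 (plus strand, Ube2c), chr5:30666636-30666935 (plus strand, Cenpa), chr1:128359656-128359955 (minus strand, Mcm6) and chr11:98907901-98908200 (plus strand, Cdc6).
Ube2c: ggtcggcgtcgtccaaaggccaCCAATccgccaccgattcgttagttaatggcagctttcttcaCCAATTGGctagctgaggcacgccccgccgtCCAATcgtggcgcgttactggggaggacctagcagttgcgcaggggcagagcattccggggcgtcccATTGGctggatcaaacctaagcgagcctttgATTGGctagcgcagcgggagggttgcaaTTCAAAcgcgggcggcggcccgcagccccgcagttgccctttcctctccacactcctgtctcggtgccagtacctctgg
Cenpa: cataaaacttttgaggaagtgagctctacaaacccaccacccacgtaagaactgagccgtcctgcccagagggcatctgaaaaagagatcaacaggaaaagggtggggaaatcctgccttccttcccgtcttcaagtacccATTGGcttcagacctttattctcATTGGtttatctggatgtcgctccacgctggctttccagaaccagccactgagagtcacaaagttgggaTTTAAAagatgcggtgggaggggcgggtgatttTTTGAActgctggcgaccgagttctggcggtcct
Mcm6: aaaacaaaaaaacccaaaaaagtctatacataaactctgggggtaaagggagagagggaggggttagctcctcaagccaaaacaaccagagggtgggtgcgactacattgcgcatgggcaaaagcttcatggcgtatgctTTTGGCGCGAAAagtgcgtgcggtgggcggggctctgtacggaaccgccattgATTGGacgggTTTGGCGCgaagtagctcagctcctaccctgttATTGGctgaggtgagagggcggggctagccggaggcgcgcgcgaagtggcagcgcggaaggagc
Cdc6: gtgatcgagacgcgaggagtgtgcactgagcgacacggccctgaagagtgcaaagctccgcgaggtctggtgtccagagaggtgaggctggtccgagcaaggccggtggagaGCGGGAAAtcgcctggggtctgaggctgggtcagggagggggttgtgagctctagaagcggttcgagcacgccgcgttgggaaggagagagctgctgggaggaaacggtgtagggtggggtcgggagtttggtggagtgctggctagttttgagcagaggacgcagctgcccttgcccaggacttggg
In Ube2c, CCAAT matches lead up to a CHR match read on the opposite strand. In Cenpa, both CHR spellings lie close to the start. In Mcm6, E2F letters occur on both strands in an overlapping pair, with a further match nearer the start. In Cdc6, a lone E2F match stands on the opposite strand.

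The members are not marked as miR-29b targets. By the authors' deposited table, none (0 of 40) had a predicted site, against 4.3% of 11797 protein-coding genes, and 0 of 40 were marked as positive hits, against 4.59%. The mature 3p arm of mouse miR-29b (RefSeq, GRCm38.p6) is printed with its seed, bases 2 to 8, in capitals, since those marks refer to sites for this family; the mimic's own sequence was not used here.
mmu-miR-29b-3p: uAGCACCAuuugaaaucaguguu

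The comparison of inputs asks whether the level of these genes in the cells differed with the mimic. They lay lower with miR-29b in 38 of 40 members, against 6805 of 12834 genes tested. The median log2 difference was −0.38, against −0.02 over all genes tested. Of the members, 1 fell (0.74% of genes tested) and 0 rose (0.639% of genes tested) by edgeR's quasi-likelihood test over the 12 libraries numbered 1 to 3, with Benjamini-Hochberg adjustment. At an unadjusted p under 0.05 there were 12 lower and 0 higher, against 8.56% and 6.06% of genes tested. Fewer cells in S phase or mitosis and less of each mRNA per cell cannot be told apart in such bulk libraries.

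The gene that fell was Mcm6, a subunit of the replicative helicase (ENSMUSG00000026355; chromosome 1, 128331575 to 128359705, GRCm38). Its levels were 32.6, 33.9 and 35.2 CPM in the miR-29b inputs and 47.6, 47.8 and 48.3 CPM in the scrambled inputs. The groups did not overlap, and Mcm6 fell by 0.52 ± 0.09 in log2 (± is the SE throughout; 3 libraries per group; edgeR adjusted p = 0.0149). The E2F letters of its promoter are among those printed above. Separate groups were common among the members. In 33 of 40 members every miR-29b input lay below every scrambled input, against 20.6% of genes tested, and this held for 15 of 15 S phase and 18 of 25 mitosis genes.

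Among the other S phase genes the helicase partner Cdc45 had 7.65 to 8.77 CPM with miR-29b and 13.1 to 13.6 CPM with the scrambled mimic (log2 −0.70 ± 0.17, edgeR adjusted p = 0.0693). Cdt1, which loads the helicase with Cdc6, had 13.5 to 18.2 against 22.3 to 24.9 CPM (log2 −0.56 ± 0.15, edgeR adjusted p = 0.0907). Both pairs of groups were apart although neither passed. The S phase differences ran from −0.70 to −0.22, with the clamp Pcna nearest to 0 at 83.5 to 87.9 against 94.2 to 101 CPM. Rrm1 and Rrm2, the subunits of ribonucleotide reductase, lay at −0.52 ± 0.31 and −0.37 ± 0.17.

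In the mitosis group the differences were widest in Mki67, which coats mitotic chromosomes (7.71, 8.25 and 9.46 CPM against 15.1, 16.5 and 17.0 CPM). Its log2 difference was −0.95 ± 0.41 (edgeR adjusted p = 0.297) in the fit of 12 libraries, whose estimate of spread includes the pulldowns. With only the 6 inputs in the fit it was −0.94 ± 0.09 (edgeR adjusted p = 0.00021). Cenpe, a kinetochore motor, lay at 2.89 to 3.04 against 5.06 to 6.07 CPM, and Top2a, which untangles DNA, at 10.0 to 11.4 against 17.9 to 18.9 CPM. These genes were low in every miR-29b input. The centromeric histone Cenpa and the kinase Aurkb lay at 0.06 and 0.04 on the log2 scale, with overlapping groups, as did Aurka at −0.09 and Ccnb2 at −0.13.

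The number of members that passed varied with the libraries in the fit. With only the 6 inputs in the fit, 29 members fell and 0 rose, being 15 of 15 S phase and 14 of 25 mitosis genes, against 13.3% of 12084 genes tested lower. That fit leaves out the pulldown libraries, so its spread is estimated from the inputs alone, and it tests fewer genes. The fit of 12 libraries shares its estimate of spread with the pulldowns. With same-numbered libraries as a block (the pairing check is under the processing) 3 fell (1.62% of genes), and without scrambled pulldown replicate 1 it was 14 (5.04%). Leaving out any of the 6 inputs left 0, as did taking all 16 libraries together. Of 43 other replication genes 4 fell and 0 rose, among them the origin subunit Orc1 at −0.94 ± 0.17 (edgeR adjusted p = 0.02), and of 42 other mitosis genes 0 passed, with 12 lower and 1 higher at an unadjusted p under 0.05 (the same shares of genes as above).

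**Figure D1:**
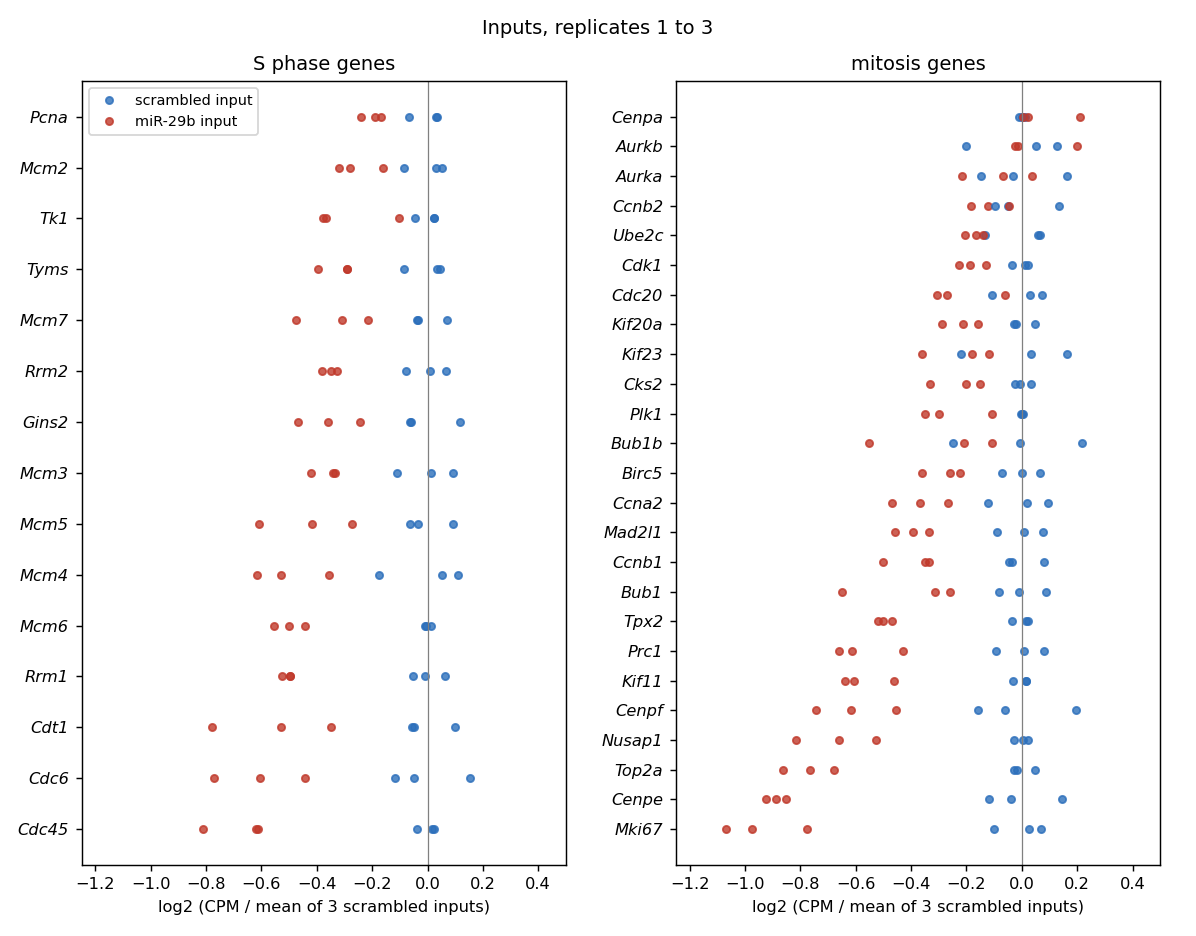
Each member's level in the 3 miR-29b inputs (red) and 3 scrambled inputs (blue), as log2 of CPM over the mean of the scrambled inputs, in S phase genes (left) and mitosis genes (right), 1 point per library. Red lies left of blue without overlap in 15 of 15 S phase and 18 of 25 mitosis genes, and the colours mix in Cenpa, Aurkb, Aurka, Ccnb2, Cdc20, Kif23 and Bub1b.

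Other libraries gave this difference in part. In the cytoplasmic inputs, with 1 library per mimic and no test, 37 of 40 members lay lower with miR-29b (median log2 −0.15). Over all genes 5790 of 11568 did, and 0 members were past 2-fold (0.268% of genes higher, 0.277% lower). In the nuclear inputs 29 of 40 lay lower (median log2 −0.08), against 5759 of 11568 genes. Past 2-fold were 0 members (0.346% of genes higher, 0.398% lower). Mcm6 had 945 and 1457 counts in the cytoplasmic inputs, a log2 ratio of −0.42 with a 95% counting interval of −0.54 to −0.30. Between the replicate 4 inputs 21 members lay higher and 19 lower with miR-29b, against 6232 and 6652 of 12915 genes. Top2a alone was past 2-fold, at a log2 ratio of 1.08 (101 against 47.8 CPM), against 9.58% of genes higher and 4.3% lower.

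The replicate 4 inputs showed the widest shift of the mitosis genes. Set against replicates 1 to 3, with the mimic as a term, 25 of 25 mitosis genes and 7 of 15 S phase genes rose and 0 fell, against 28.1% of 12662 genes tested higher and 27.8% lower (edgeR adjusted p under 0.05). The median log2 change of the members was 1.35, against 0.02 over all genes. There was 1 such library per mimic, so the procedure named intact, RNA amount, cell density and anything else that differed cannot be told apart. The RNA amounts were 6 ng for the miR-29b library and 5 ng for the scrambled one, as for the other inputs.

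Summed over the 25 mitosis genes, the level was 383 to 399 CPM in the miR-29b inputs numbered 1 to 3 and 1640.0 CPM in replicate 4. In the scrambled inputs it was 476 to 482 CPM and 1406 CPM. The sum of the 15 S phase genes went from 354 to 372 CPM to 497 CPM and from 456 to 471 CPM to 531 CPM. Both sums were higher in replicate 4 of both mimics, and that of the S phase group by less; the difference between the groups was not tested. In all 25 mitosis genes both replicate 4 libraries lay above all 6 others, against 25.1% of genes tested, and 24 of 25 rose at least 2-fold, against 10.6%.

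The cyclin Ccna2 (ENSMUSG00000027715; chromosome 3, 36564865 to 36573038, GRCm38) rose most. It had 30.5 to 35.1 CPM in the miR-29b inputs and 262 CPM in replicate 4, and 38.9 to 45.1 CPM in the scrambled inputs and 168 CPM in replicate 4. It rose 5.92-fold (log2 2.57 ± 0.18, 2 against 6 libraries, edgeR adjusted p = 8.41e-06). The rise was 8.00-fold over the mean of its group with miR-29b and 3.97-fold with the scrambled mimic. Top2a rose 5.56-fold, Cenpf 5.21-fold, Mki67 4.80-fold and the cyclin Ccnb1 4.50-fold.

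Cenpa and Ube2c, whose promoters are printed above, rose 4.40-fold and 3.62-fold with narrow errors (log2 2.14 ± 0.07 and 1.85 ± 0.08, edgeR adjusted p = 1.68e-07 and 5.7e-07). Cenpa went from 35.8 to 41.6 CPM in the 6 inputs to 173 and 147 CPM. Ube2c, which marks mitotic proteins for degradation, went from 32.6 to 39.2 CPM to 125 CPM in both. The inhibitor of apoptosis and chromosomal passenger Birc5 rose 4.19-fold, and Cdk1, the kinase that the cyclins activate, rose least of the group at 1.64-fold (log2 0.71 ± 0.07). The checkpoint genes Bub1, Bub1b and Mad2l1 rose by 1.24, 1.34 and 1.81 in log2.

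In the S phase group Mcm7, Cdc6 and Tk1 rose 2.11-fold, 2.03-fold and 2.02-fold, and Gins2, Mcm5, Tyms and Rrm2 rose by 0.50 to 0.67 on the log2 scale. Mcm2, Mcm3, Mcm4, Mcm6, Pcna, Cdc45, Rrm1 and Cdt1 did not pass, with log2 values of −0.24 to 0.29. Helicase subunits therefore stood on both sides. Cdc6 had 11.0 CPM in the miR-29b replicate 4 against 3.01 to 3.77 CPM, but 5.49 CPM in the scrambled one against 4.74 to 5.71 CPM. Other S phase genes also moved differently with the 2 mimics. Over the mean of their group, Cdc45, Mcm4 and Mcm6 stood at 1.27-fold, 1.11-fold and 1.05-fold with miR-29b. With the scrambled mimic they stood at 0.71-fold, 0.88-fold and 0.84-fold. Pcna went the other way, at 0.92-fold and 1.22-fold. These ratios rest on 1 library per mimic and were not tested. With the authors' library totals 30 rose and 3 fell, while over all genes the split of 28.1% higher and 27.8% lower became 17.7% and 38.5%. Of 42 other mitosis genes 40 rose and 0 fell, including Foxm1, which drives this programme, at 1.99 ± 0.10, and of 43 other replication genes 31 rose and 2 fell. Adipocyte markers moved too, with 3 of 4 lower at a median log2 of −2.17, and fibroblast markers had 3 higher and 2 lower of 10; their part in the result was not tested.

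**Figure D2:**
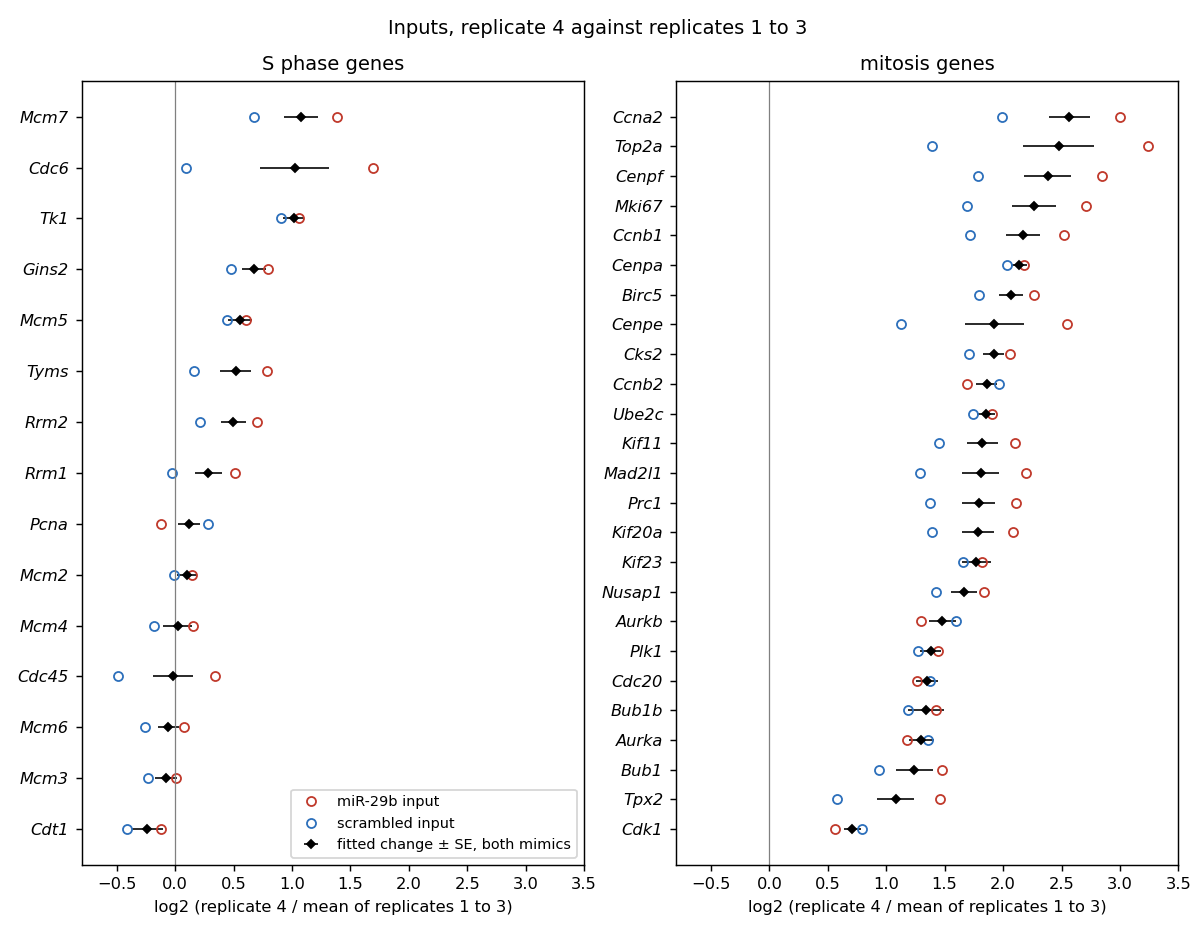
Log2 of replicate 4 over the mean of replicates 1 to 3 in the miR-29b inputs (red circles) and the scrambled inputs (blue circles), with the fitted change over both mimics ± SE (black), for S phase genes (left) and mitosis genes (right). Every mitosis gene lies right of 0 in both mimics, from Cdk1 at 0.71 to Ccna2 at 2.57 for the fitted change, while the S phase genes run from Cdt1 at −0.24 to Mcm7 at 1.08.

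The scrambled mimic has no intended targets, so its pulldown against its input shows what was recovered without one. Most mitosis genes were recovered above input. Of the members 22 rose (27.7% of genes tested) and 3 fell (26.4%), by the same edgeR test, with 16 higher and 1 lower among mitosis genes and 6 and 2 among S phase genes. The median log2 change was 0.58, against 0.03 over all genes. In 12 members every pulldown lay above every input (28.1% of genes) and in 5 below (29.7%). Of 42 other mitosis genes 33 rose and 1 fell.

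Cenpf, a large kinetochore protein gene (ENSMUSG00000026605; chromosome 1, 189640606 to 189688107, GRCm38), was recovered most. It had 5.78, 6.19 and 7.39 CPM in the scrambled inputs and 22.5, 87.1 and 79.5 CPM in the pulldowns. It rose 9.98-fold (log2 3.32 ± 0.39, n = 3 per group, edgeR adjusted p = 2.65e-05). Replicate 1 was the low pulldown, yet it lay above every input. Mki67 had 15.1 to 17.0 CPM in the inputs and 29.5, 141 and 124 CPM in the pulldowns (6.12-fold), Cenpe rose 6.28-fold, Top2a 5.15-fold and the checkpoint kinase Bub1 4.20-fold. Pcna, Cdt1 and Cks2 fell by 0.62, 0.59 and 0.44 on the log2 scale.

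With the 8 scrambled libraries of all 4 numbers, within the fit of all 16, 6 members rose and 2 fell (18.5% and 17.4% of genes). With the authors' library totals it was 9 and 2 (17.9% and 25.7% of genes), and with replicates 1 and 2 alone 6 and 0 (11.99% of genes higher, 10.9% lower). Without scrambled pulldown replicate 3 it was 14 higher (23.1%). Bub1, Cenpe, Cenpf and Mki67 passed under every alternative tried.

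The fractions give where these mRNAs lay in the cell. With 1 library per fraction and no test, nuclear over cytoplasmic input ratios ran from −2.11 to 2.33 on the log2 scale with miR-29b and from −2.14 to 2.18 with the scrambled mimic. At least 2-fold nuclear were 6 and 5 of 40 members (25.1% and 23.8% of 11568 genes) and at least 2-fold cytoplasmic 9 and 9 (25.9% and 24% of genes), so the members as a whole stood near the background. The ratios are relative to the TMM scale. Library size by the sum of listed counts moved the median of all genes to 0.70 and 0.56, and the authors' totals moved it to −0.34 and −0.26, so only the order of genes is free of that choice.

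Mki67 stood at the nuclear end with 7457 nuclear and 1592 cytoplasmic counts in the miR-29b inputs (log2 2.33, 95% counting interval 2.26 to 2.41) and at 2.18 in the scrambled inputs. Cenpe followed at 2.18 and 1.90, then Top2a at 1.88 and 1.81, Cenpf at 1.73 and 1.43 and the motor Kif23 at 1.48 and 1.22. These are genes of kinetochore, chromosome and spindle proteins. At the cytoplasmic end stood Ube2c at −2.11 and −2.14, with 280 nuclear and 1328 cytoplasmic counts in the miR-29b inputs, then Cks2 at −1.81 and −1.92. Gins2, Ccnb2, Pcna, Ccna2, Mad2l1, Cdk1 and Birc5 were also at least 2-fold cytoplasmic in both.

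Recovery with the scrambled mimic was set beside these ratios. The 5 members at least 2-fold nuclear in both inputs all rose in the scrambled pulldown, by 1.61 to 3.32 on the log2 scale. Of the 9 at least 2-fold cytoplasmic in both, 1 rose and 2 fell, with a range of −0.62 to 0.79. Over the 40 members the nuclear ratio in the scrambled inputs and the recovery in whole cells had a Pearson r of 0.74 and a Spearman rho of 0.66, and over the 25 mitosis genes 0.87 and 0.85. Over the 15 S phase genes these were 0.53 and 0.41. With the miR-29b libraries the 40 members gave 0.48 and 0.52. The fraction and whole-cell libraries are different, but genes are not independent replicates and share length and depth, so these values only describe the members. The same classes and correlations were not computed over all genes, so the link is not shown to be particular to the members.

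**Figure D3:**
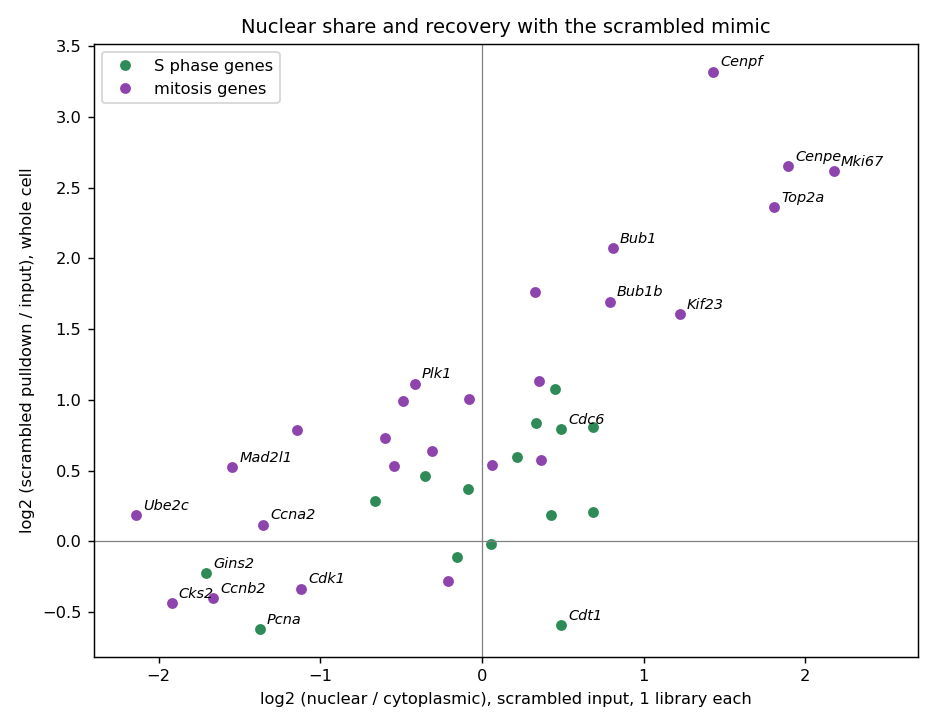
Each member's nuclear over cytoplasmic log2 ratio in the scrambled inputs (horizontal, 1 library each) against its log2 change from scrambled input to scrambled pulldown in whole cells (vertical, 3 libraries per group), in S phase genes (green) and mitosis genes (purple). Mki67, Cenpe, Top2a, Cenpf and Kif23 lie at the upper right and Cks2, Ccnb2, Gins2 and Pcna at the lower left, with Pearson r = 0.74 over 40 genes.

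In the miR-29b pulldown against its own input the members split. Of the 40, 11 rose (34.1% of genes tested) and 9 fell (31% of genes tested), with a median log2 change of 0.06 against −0.01 over all genes, so their shares lay below the background. Every pulldown lay above every input in 15 members (36.6% of genes) and below in 13 (37.6%). Top2a, Cdc6 and Ccna2 were recovered most. Of the 9 cytoplasmic members 4 fell (Pcna, Cks2, Ube2c and Cdk1) and 2 rose (Ccna2 and Mad2l1).

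Top2a (ENSMUSG00000020914; chromosome 11, 98992947 to 99024199, GRCm38) had 10.0, 11.4 and 10.8 CPM in the miR-29b inputs and 53.2, 124 and 89.2 CPM in the pulldowns. It rose 8.51-fold (log2 3.09 ± 0.38, n = 3 per group, edgeR adjusted p = 1.59e-05). Cdc6 (ENSMUSG00000017499; chromosome 11, 98907709 to 98923942, GRCm38) had 3.01, 3.77 and 3.37 CPM in the inputs and 9.97, 39.3 and 23.5 CPM in the pulldowns, and rose 7.41-fold (log2 2.89 ± 0.43, edgeR adjusted p = 7.09e-05). Ccna2 had 32.8, 35.1 and 30.5 CPM in the inputs and 97.7, 260.3 and 176 CPM in the pulldowns, and rose 5.59-fold (log2 2.48 ± 0.39, edgeR adjusted p = 0.00011). In each of the 3 genes every pulldown lay above every input. The spread within the pulldown was wide, with replicate 3 between replicates 1 and 2, so n = 3 may overstate the replication here.

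Cenpe rose 4.26-fold, the motor Kif20a 2.94-fold, Cenpf 2.87-fold, Mki67 and Mad2l1 each 2.51-fold, thymidine kinase Tk1 2.36-fold, the spindle assembly factor Tpx2 2.17-fold and Aurkb 1.88-fold. Pcna went the other way, from 83.5 to 87.9 CPM in the inputs to 31.5 to 44.7 CPM in the pulldowns, and fell by 1.17 ± 0.11 in log2 units (edgeR adjusted p = 1.69e-06). Cks2, Ube2c, Cdk1 and Cenpa fell by 1.07, 0.96, 0.91 and 0.84, and Aurka, Cdc20, Mcm2 and Tyms fell by 0.54, 0.51, 0.50 and 0.47. The authors' library totals left 10 higher and 3 lower (34.4% and 19.9% of genes), upper-quartile factors 10 and 15 (27.2% and 42.2%), and all 16 libraries 5 and 2 (28.4% and 23.2%). Cdc6, Cenpe, Pcna, Top2a and Tpx2 passed under every alternative tried.

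**Figure D4:**
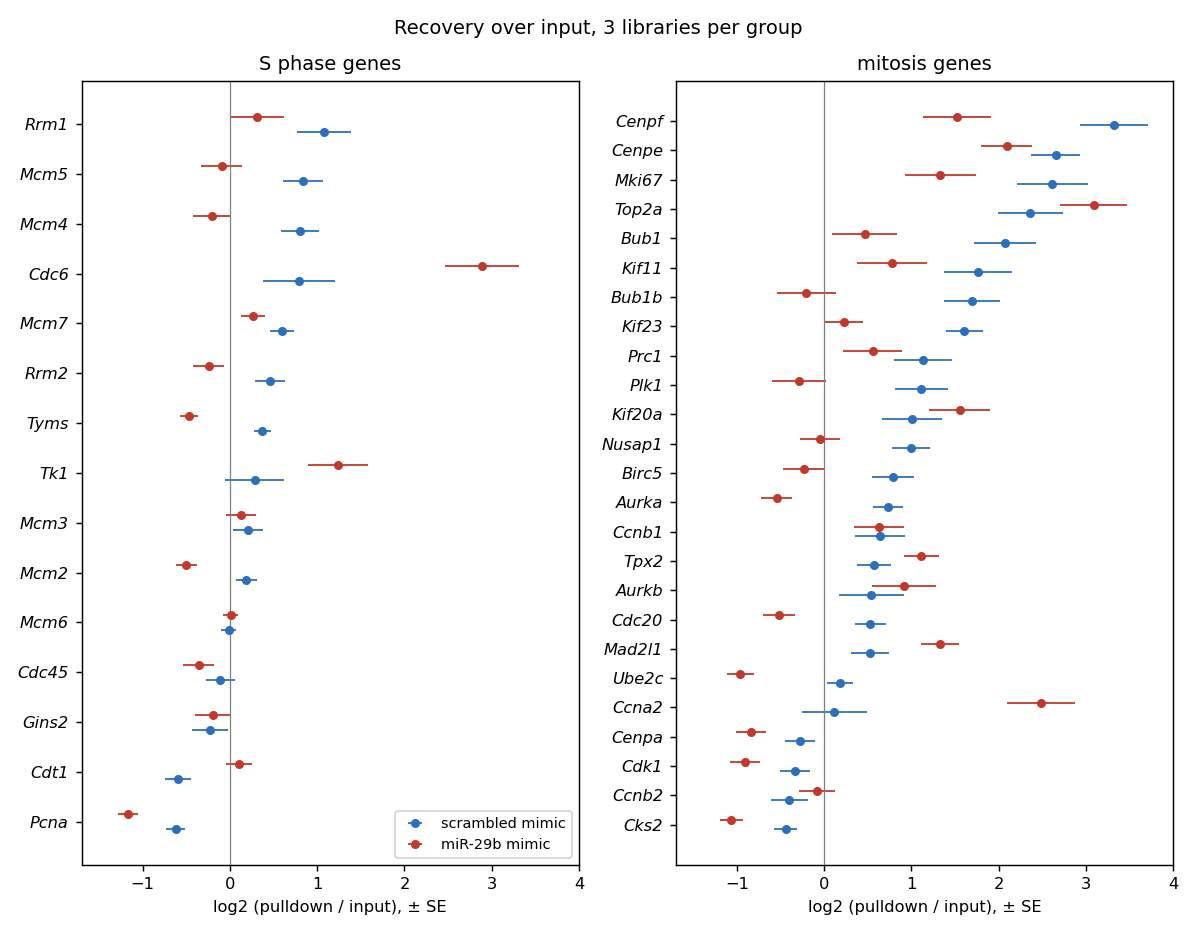
Log2 change from input to pulldown with its SE for the miR-29b mimic (red) and the scrambled mimic (blue), 3 libraries per group, for S phase genes (left) and mitosis genes (right). Red lies far right of blue in Ccna2 (2.48 against 0.12) and Cdc6 (2.89 against 0.79), and left of it in most mitosis genes, such as Cenpf (1.52 against 3.32) and Bub1b (−0.20 against 1.69).

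The test for recovery particular to miR-29b sets its pulldown over input ratio against that of the scrambled mimic. Ccna2, Cdc6 and Cdt1 were recovered more with miR-29b, and 11 mitosis genes and 6 S phase genes less. Of 40 members 3 rose (24.4% of genes tested) and 17 fell (19.1%), with 2 higher and 6 lower in the S phase group and 1 higher and 11 lower in the mitosis group. The median log2 change was −0.58, against −0.07 over all genes.

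Ccna2 rose 5.16-fold in this contrast (log2 2.37 ± 0.53, n = 3 per group, edgeR adjusted p = 0.00312), and Cdc6 4.28-fold (log2 2.10 ± 0.59, edgeR adjusted p = 0.0121). Cdt1 rose 1.62-fold (log2 0.69 ± 0.21, edgeR adjusted p = 0.0192), with 13.4 to 18.3 CPM in the miR-29b pulldown, 14.3 to 15.9 CPM in the scrambled pulldown, and the inputs given above. Its pulldown levels overlapped between mimics, while its input levels did not. The checkpoint kinase gene Bub1b fell by 1.90 ± 0.47, Cenpf by 1.80 ± 0.53, Bub1 by 1.60 ± 0.51 and the mitotic kinase Plk1 by 1.40 ± 0.43 in log2, at edgeR adjusted p = 0.00606, 0.0165, 0.0234 and 0.02. Mad2l1, at 0.81 ± 0.31, missed the threshold (edgeR adjusted p = 0.0517).

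None of these 20 calls held under every alternative. With all 16 libraries 0 members rose and 0 fell, while 17.0% and 9.21% of genes did, and with replicates 1 and 2 alone 0 and 0, against 13.3% and 3.93%. The authors' library totals left 3 higher and 0 lower (25.0% and 4.45% of genes), and upper-quartile factors 2 and 25 (18.6% and 34.3%). Without scrambled pulldown replicate 3 there were 9 lower (16.1% of genes) and without scrambled pulldown replicate 1 there were 25 (24.2%). Without miR-29b pulldown replicate 1 there were 6 higher (26.0%). Of 43 other replication genes 5 rose and 17 fell, led by the cyclin Ccne2 at 4.66 ± 0.58, the kinase Cdc7, which fires origins, at 2.52 ± 0.49 and the cyclin Ccne1 at 1.77 ± 0.42. Of 42 other mitosis genes 1 rose, the factor Mybl2 (B-Myb) at 2.55 ± 0.65, and 18 fell.

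The pulldowns were also compared directly. Of the members 2 rose (29.5% of genes tested) and 28 fell (29.5%), with 11 lower in the S phase and 17 in the mitosis group, and a median log2 change of −0.95 against −0.08 over all genes. Ccna2 rose 3.95-fold (log2 1.98 ± 0.38, n = 3 per group, edgeR adjusted p = 0.00069), at 97.7, 260.3 and 176 CPM with miR-29b against 19.5, 60.3 and 54.9 CPM with the scrambled mimic, with no overlap. Cdc6 rose 2.79-fold (log2 1.48 ± 0.40, edgeR adjusted p = 0.0066), at 9.97, 39.3 and 23.5 against 4.91, 11.7 and 8.73 CPM. For Cdc6 the lowest miR-29b pulldown lay below the highest scrambled one. In 1 member all miR-29b pulldowns lay above all scrambled ones (29% of genes) and in 23 below (28.3%).

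Not every gene of a kind fell: Mad2l1, Tk1 and Gins2 had log2 values of 0.40, 0.66 and −0.34 and did not pass. Cenpf had 9.07, 14.2 and 12.4 CPM with miR-29b against 22.5, 87.1 and 79.5 CPM, and fell by 2.41 ± 0.37 in log2 units (edgeR adjusted p = 0.000128). Thymidylate synthase, Tyms, had 10.8 to 12.6 against 25.2 to 28.4 CPM and fell by 1.18 ± 0.10 (edgeR adjusted p = 9.82e-07). Both sets of libraries were apart. Mki67 fell by 2.24, Bub1b by 2.19, Bub1 by 2.02, the spindle protein Nusap1 by 1.72, Plk1 by 1.67, Mcm4 by 1.53, Mcm5 by 1.38 and Ube2c by 1.33. With the authors' library totals 2 rose and 18 fell (34.8% and 11.8% of genes), with upper-quartile factors 2 and 30 (22.1% and 43.5%), and with all 16 libraries 2 and 11 (24.5% and 20.9%). Bub1, Bub1b, Ccna2, Mcm2, Mcm4, Mcm5 and Plk1 passed under every alternative tried. Of 43 other replication genes 6 rose and 29 fell, and of 42 other mitosis genes 1 and 37.

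**Figure D5:**
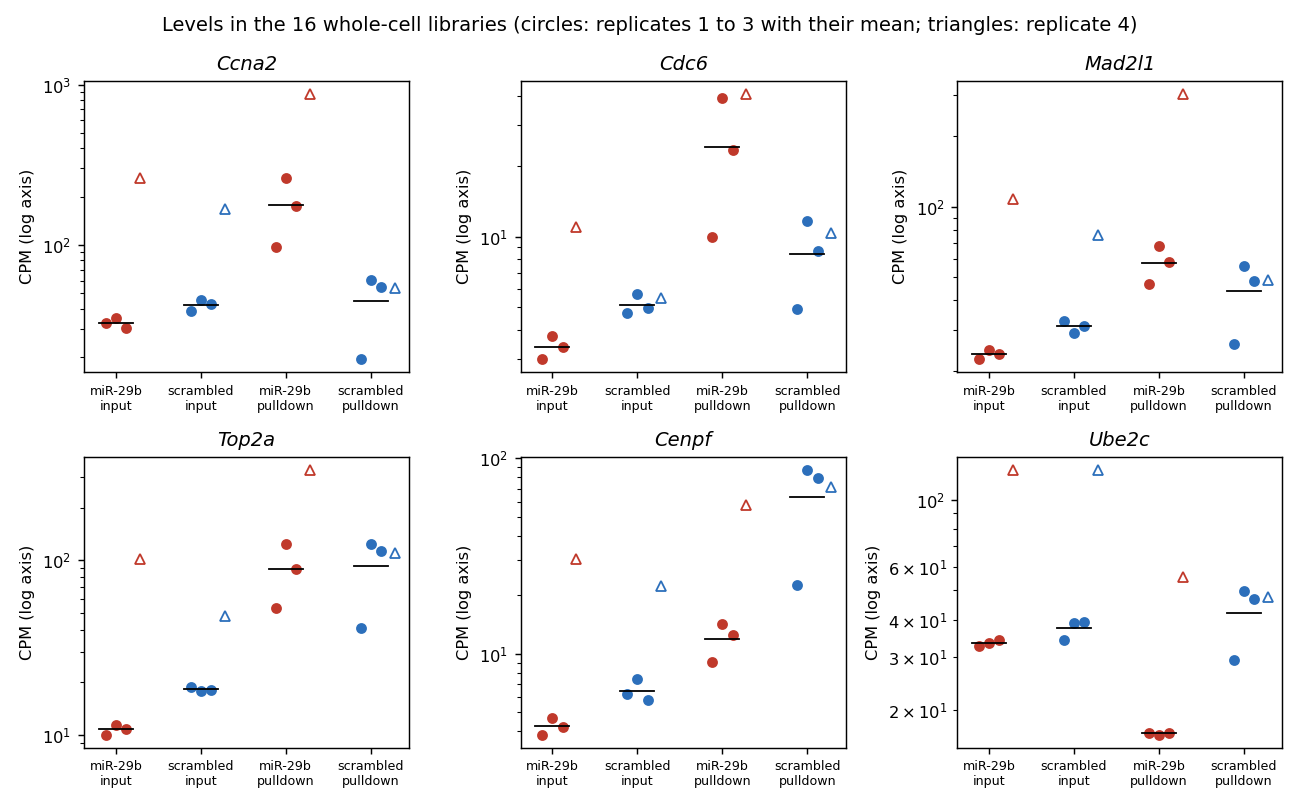
Levels in CPM on a log axis of single members in all 16 whole-cell libraries, by group, with circles for replicates 1 to 3, bars for their mean and triangles for replicate 4. Ccna2 and Cdc6 stand highest in the miR-29b pulldown, where replicate 4 reaches 871 and 40.6 CPM, while Cenpf in replicates 1 to 3 stands highest in the scrambled pulldown.

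Replicate 4 of the pulldowns gave other values, and its libraries differ in more than the mimic. The scrambled one lay near replicate 3 of its group (a chi-square of 7.43 per degree of freedom), while the miR-29b one differed from its fellows by 314.5 to 383.1, so its ratio sets unlike libraries side by side. Its miR-29b pulldown stood above its scrambled pulldown in 24 members and below in 16, against 5894 and 7021 of 12915 genes. At least 2-fold higher were 11 members and lower 1, against 20.7% and 26.8% of genes, with no test. Ccna2 stood at 871 against 54.0 CPM, a log2 ratio of 4.01, Mad2l1 at 2.62, Kif20a at 2.16 and Cdc6 at 1.97. The replication factor Gins2 was the lower one at −1.16. Mitosis genes summed to 2635 CPM in the miR-29b library and 1001 CPM in the scrambled one, whose input had 1406 CPM.

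In the cytoplasmic pulldowns, 1 library per mimic, all 25 mitosis genes lay above 0 for miR-29b over scrambled, against 5928 of 11568 genes. At least 2-fold higher were 16, against 20.3% of genes higher and 16.9% lower. In the S phase group 9 of 15 lay above 0 and Pcna alone passed 2-fold, at 1.38. Ccna2 had 1645 against 109 counts (log2 2.79, 95% counting interval 2.53 to 3.10), Bub1 293 against 21 (2.60, 2.05 to 3.41) and Ccnb1 605 against 50 (2.45, 2.07 to 2.93). Mad2l1 and Ccnb2 followed at 2.07 and 2.06. The scrambled library was the shallow one, with 5320421 listed counts and 48.7% of the authors' total listed, against 78.4% to 78.9% in the other cytoplasmic libraries; its part in the result was not tested. In the nuclear pulldowns 0 members were past 2-fold (1.26% higher and 1.96% lower of genes), with values from −0.90 in Gins2 to 0.54 in Ccna2.

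The authors' deposited table gives a pulldown enrichment score and marks. Ccna2 had scores of 5.45, 4.39 and 2.97 in replicates 1 to 3 and 16 in replicate 4 in the authors' deposited table. It was the 1 of 40 members marked in at least 1 lysed replicate there, against 9.87% of protein-coding genes, and 0 were marked in all. In replicate 4 the authors' deposited table marks 4 of 40, Ccna2, Cdc6, Kif20a and Mad2l1, against 7.55%. In the cytoplasm it marks 0 of 40, against 1.73% of 10630 genes. Its cytoplasmic score was 1.78 for Ccna2 and 0.96 for Bub1, but −2.03 for Ccnb1 and −7.60 for Ccnb2. The cytoplasmic pulldown ratios given above were positive in all of these genes. The score is another measure than those ratios, and the reason for the difference was not tested.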

How the data were processed

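The authors deposited read counts per gene for 16 whole-cell libraries and 8 fraction libraries of NIH3T3 RNA, with CPM-type values, marks and an enrichment score beside them. STAR 2.3.0 and mm10 are named per the submitters' processing notes, and a gencode annotation per the file headers. Repeated lines (518 of 14052, identical) were dropped. Genes were tested on the deposited counts with edgeR 4.0.16 in R 4.3.3 (filterByExpr, TMM, quasi-likelihood F test, Benjamini-Hochberg, threshold 0.05), as group means over the 12 whole-cell libraries numbered 1 to 3: 12834 genes were tested and 700 filtered out. Replicate 4 inputs were set against the other inputs in a fit of the 8 inputs with the mimic as a term, on 12662 genes. There were 6 such comparisons. CPM levels were computed over all 16 libraries. Fraction ratios are log2 values computed from the deposited counts (TMM, prior count 5, at least 20 counts over the 8 libraries), with exact binomial 95% intervals that cover counting error only. PCR reads carry no molecular identifiers. The script was tested on simulated data.

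Every member could be named; of the related replication and mitosis lists, up to 3 genes per direction with the smallest p were named. The members and lists were chosen with earlier results of these data known. Same-numbered libraries tended to deviate alike, weakly in replicate 3, though no label states a pairing. Deviations of same-numbered inputs correlated at 0.39, 0.27 and 0.12, and those of same-numbered pulldowns at 0.36, 0.35 and 0.04. In these pairs, and between inputs and pulldowns, the best match was always the same number. Deviations were taken from the group mean, so these matches are not independent. The main fit has no term for this pairing, and the replicate block was an alternative. Alternatives were RLE, upper-quartile and authors' totals as scaling, DESeq2 1.42.0, other filters, a replicate block, only the groups compared, all 16 libraries, replicates 1 and 2 alone, and leaving out each library. Mean levels between genes were not compared, as CPM is not per length.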

Additional observations from a re-analysis of the deposited data

Results flagged for a closer look

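Some libraries lay far from the other 3 of their group, by the gap to the nearest library relative to the group's range; chance alone marks about 1 in 20 groups. In miR-29b input replicate 4 the S phase sum was high at 497 CPM and the mitosis sum at 1640.0 CPM, with 6 S phase and 25 mitosis genes high singly. In scrambled input replicate 4 the mitosis sum was high at 1406 CPM, with 24 mitosis genes high, and 2 S phase genes high and 2 low. In miR-29b pulldown replicate 4 the mitosis sum was high at 2635 CPM, with 3 S phase and 19 mitosis genes high, and in replicate 1 of that group 1 S phase gene was low. In scrambled pulldown replicate 1 the S phase sum was low at 386 CPM, with 5 S phase and 10 mitosis genes low. The share of all genes so marked was not computed, so these counts of genes have no background. In the replicate 4 inputs 28.1% of genes tested were higher and 27.8% lower than in replicates 1 to 3 (edgeR adjusted p under 0.05).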

How the results depend on the processing

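Counts of members depended on which libraries and scaling were used, and the share of all genes called in the same direction, in brackets, moved as well. For inputs, the 1 lower member (0.74% of genes) became 2 with upper-quartile factors (0.803%) and 0 with the authors' totals (0.0857%). It became 4 with DESeq2 (2.86%), 2 with a filter of 2 CPM (1.4%) and 3 with the replicate block (1.62%). With only the groups compared there were 29 (13.3%), with all 16 libraries 0 (0%) and with replicates 1 and 2 alone 0 (0%). Leaving out 1 library gave 0 to 14, with 14 without scrambled pulldown replicate 1 (5.04%) and 2 without miR-29b pulldown replicate 1 (1.47%). For miR-29b pulldown against input, 11 higher became 5 with all 16 (28.4%) and 7 with replicates 1 and 2 (24.6%). The 9 lower became 15 with upper-quartile factors (42.2%), 3 with the totals (19.9%), 2 with all 16 (23.2%) and 5 with replicates 1 and 2 (19.4%). Leaving 1 out gave 10 to 16 higher and 8 to 12 lower. For pulldown against pulldown, 2 higher became 1 with replicates 1 and 2 (20.4%), and 28 lower became 18 with the totals (11.8%) and 11 with all 16 (20.9%). Leaving 1 out gave 2 to 3 higher and 26 to 30 lower. For the mimic-specific contrast, 3 higher became 0 with all 16 (17.0%) and 0 with replicates 1 and 2 (13.3%). The 17 lower became 0 with the totals (4.45%), 0 with all 16 (9.21%) and 0 with replicates 1 and 2 (3.93%). Leaving 1 out gave 2 to 6 higher and 9 to 25 lower. The setting of only the groups compared could not be applied to it. That setting gave 16 higher and 12 lower for miR-29b pulldown against input (36.2% and 36.5%). Between pulldowns it gave 2 and 25 (24.8% and 24.9%), and for scrambled pulldown against input 17 and 2 (24.9% and 24.0%). For scrambled pulldown against input, 22 higher became 9 with the totals (17.9%), 6 with all 16 (18.5%) and 6 with replicates 1 and 2 (11.99%). The 3 lower became 0 with replicates 1 and 2 (10.9%). Leaving 1 out gave 14 to 28 higher, the 14 without scrambled pulldown replicate 3 (23.1%), and 3 to 5 lower. For replicate 4 inputs, 32 higher became 30 (17.7%) and 0 lower became 3 (38.5%) with the totals. Leaving out any input numbered 1 to 3 left 32 higher and 0 lower. The median log2 change of the members was 1.26 without miR-29b input replicate 4 and 1.47 without scrambled input replicate 4. It was 1.23 within the scrambled inputs alone and 1.47 within the miR-29b inputs alone. A fit within 1 mimic sets 1 library against 3 and assumes that it varies like them. Apart from the input comparison, the replicate block moved no count by over 1.5 times.

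Reversals were few. With all 16 libraries Cenpa stood at 0.29 and Cks2 at 0.024 between pulldowns, and Cks2 at 0.059 in the mimic-specific contrast. With upper-quartile factors Mcm6 stood at −0.29 in miR-29b pulldown against input. For Cdc45 in replicate 4 inputs the sign depended on which replicate 4 library was kept. It stood at 0.37 without scrambled input replicate 4 and within the miR-29b inputs alone, but at −0.46 without miR-29b input replicate 4. The nuclear over cytoplasmic median of members was −0.34 with the totals and 0.73 without TMM for miR-29b, and −0.30 and 0.56 for scrambled; the cytoplasmic pulldown median was 1.27 with the totals. The cause of these moves was not tested.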
